A study of Mus musculus with 12 samples.

Results

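The genes described here encode subunits of the mitochondrial respiratory chain and ATP synthase. They were taken from the deposited gene table as rows whose symbol begins as those of the nuclear-encoded subunits of complexes I to V do (Nduf, Sdh, Uqcr, Cox4 to Cox8 and Atp5 families) and whose value reached 10 in at least 3 of the 12 libraries. The symbol pattern matched 84 of 23361 rows, and 77 of these passed the minimum and are the members below, among 10868 genes tested. Complex I had 35 members, complex II 4, complex III 8, complex IV 13 and complex V 17. The pattern uses names and a minimum level only, and no difference between groups entered the choice. A gene present mainly in islets can still pass the minimum through the islet libraries, as Cox7a1 did. A few members are not subunits: Atp5s is a coupling factor of ATP synthase, Atp5sl is the older symbol of a complex I assembly factor, and Cox7a2l is a factor for respiratory supercomplexes. Ndufa4 was placed in complex IV, where its protein is now assigned. Genes encoded on mitochondrial DNA were not analysed here.

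The study sequenced RNA of mouse regulatory T cells (Tregs), the Foxp3-expressing CD4 T cells that hold immune responses in check, from a model of autoimmune diabetes. The 12 libraries form 4 groups of 3: Lag3-deficient Tregs from pancreatic islets (Lag3 islet), Wt Tregs from islets (Wt islet), Lag3-deficient Tregs from non-draining lymph nodes (Lag3 NDL) and Wt Tregs from those nodes (Wt NDL). Lag3 is an inhibitory receptor for MHC class II. The labels name the material cytoplasmic RNA, and the sources used here do not state the strain, age, sort or kind of Lag3 allele.

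The respiratory chain passes electrons from NADH, through complex I, or from succinate, through complex II, to ubiquinone, then through complex III and cytochrome c to complex IV, which reduces oxygen. Complexes I, III and IV pump protons across the inner mitochondrial membrane, and complex V uses the gradient to make ATP. In T cells this machinery is built up upon activation, and Tregs are known for a marked reliance on oxidative metabolism.

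Each group had columns numbered 1, 2 and again 1; the repeated number is written 1a and 1b, and values of a group are listed in the order 1a, 2, 1b. The deposited values are rescaled counts with nearly equal totals (15232498 to 15370098), so the depth is unknown and no counting interval is given. In Lag3 islet 2 genes took 47 of the whole numbers from 1 to 100, against 74 in Wt NDL 2, 91 in Lag3 NDL 1b and all 100 in the other 9 libraries, and such gaps are left when a column is multiplied up. The trimmed-mean factor of Lag3 islet 2 was 1.18 and its RLE (median of ratios) factor 0.786, the widest gap among the libraries. The ribosomal RNA gene Rn45s held 1.26 to 1.68% of the signal in the 4 libraries called 1b and 0.149 to 0.571% in the other 8. Lag3 itself was at 2.76, 3.52 and 8.14 CPM (parts per 1000000 of the scaled library total) in the Wt islet libraries and between 0 and 0.435 CPM in the other 9. The Treg gene Foxp3 lay between 224 and 654 CPM in all 12 libraries. Exocrine pancreas markers summed to 33.5 to 449 CPM in Lag3 islet, 156 to 2556 CPM in Wt islet and at most 4.79 CPM in NDL, and B cell markers to 6.94 to 220.1 CPM over the Lag3 islet libraries and 22.1 to 202 CPM over the others; 9 of 11 exocrine and 4 of 4 B cell markers could be tested, and Prss1 and Amy2a5 were at or near 0 everywhere. Endocrine markers summed to 1.87 to 38.3 CPM in Lag3 islet, 9.90 to 214 CPM in Wt islet and at most 0.242 CPM in NDL. Myeloid markers summed to 0.278 to 34.3 CPM, 25.8 to 102 CPM and at most 37.5 CPM in the same order. CD8 and NK markers reached at most 16.7 CPM, in Lag3 islet, and stroma markers at most 113 CPM, in Wt NDL. The part of these other cells in the results below was not tested. In such bulk libraries, fewer cells of a type and less RNA per cell cannot be told apart. The labels do not tie the 3 libraries of a group to separate mice, and the p-values below therefore describe the spread between libraries, which may be technical.

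Subunits with tissue-specific copies showed which isoforms these Tregs carried. Complex IV has pairs in which one gene is used in most tissues and the other in heart and skeletal muscle (Cox7a2 and Cox7a1, Cox8a and Cox8b, Cox6a1 and Cox6a2), in lung (Cox4i1 and Cox4i2) or in testis (Cox6b1 and Cox6b2; Cox8c). The common copy was present in every library: Cox7a2 lay between 116 and 579.9 CPM, Cox8a between 58.1 and 205 CPM, Cox6a1 between 159.7 and 596 CPM, Cox4i1 between 298 and 997 CPM and Cox6b1 between 148 and 304 CPM. All 7 matched rows that stayed under the minimum were alternative copies: Cox4i2, Cox6a2, Cox6b2, Cox7b2, Cox8b, Cox8c and Ndufa4l2. Cox4i2 and Cox8b were listed at 0 in all 12 libraries, and the highest value of the other 5 was 2.31 CPM, for Cox6b2 in Lag3 islet 2. Cox7a1 alone among the alternative copies passed the minimum. It was at 5.05, 14.8 and 0 CPM in the Lag3 islet libraries, at 4.83, 0 and 0 CPM in Wt islet, at 0.671, 0 and 0 CPM in Lag3 NDL and at 0 in the 3 Wt NDL libraries. Its signal thus came from 4 of 12 libraries, 3 of them from islets. It would not have passed the minimum on its NDL values, so a difference toward islets is partly set by that minimum.

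The sequences upstream of these common and muscle copies are shown because the copies differ so widely in level in the same cells. Each is the 250 bases before the RefSeq start site, read 5′ to 3′ on the gene's strand from RefSeq windows on GRCm38.p6, with CpG dinucleotides in capitals. Cox7a2 is at chr9:79759854-79760103 (minus strand), Cox7a1 at chr7:30183921-30184170 (plus), Cox8a at chr19:7217617-7217866 (minus) and Cox8b at chr7:140900447-140900696 (minus).
Cox7a2: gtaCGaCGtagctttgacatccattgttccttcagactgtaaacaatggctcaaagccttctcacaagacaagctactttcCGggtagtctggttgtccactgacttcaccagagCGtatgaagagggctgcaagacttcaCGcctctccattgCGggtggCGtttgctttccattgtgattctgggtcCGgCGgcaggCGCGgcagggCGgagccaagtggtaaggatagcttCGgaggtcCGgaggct
Cox7a1: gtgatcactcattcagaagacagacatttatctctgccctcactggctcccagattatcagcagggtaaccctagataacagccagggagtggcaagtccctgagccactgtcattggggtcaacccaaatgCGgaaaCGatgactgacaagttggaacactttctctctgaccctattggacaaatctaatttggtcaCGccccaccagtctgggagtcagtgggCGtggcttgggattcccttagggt
Cox8a: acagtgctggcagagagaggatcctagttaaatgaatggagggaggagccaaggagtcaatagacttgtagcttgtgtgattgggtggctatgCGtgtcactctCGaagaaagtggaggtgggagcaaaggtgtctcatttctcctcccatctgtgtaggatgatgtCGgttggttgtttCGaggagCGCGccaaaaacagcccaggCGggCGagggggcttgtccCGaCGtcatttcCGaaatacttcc
Cox8b: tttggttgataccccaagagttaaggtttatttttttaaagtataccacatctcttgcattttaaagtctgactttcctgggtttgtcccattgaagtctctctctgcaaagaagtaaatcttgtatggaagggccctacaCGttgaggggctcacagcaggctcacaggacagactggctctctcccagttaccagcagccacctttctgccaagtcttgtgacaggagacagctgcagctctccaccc
Cox7a2 and Cox8a, the copies used in most tissues, held 14 and 11 CpG, and Cox7a1 and Cox8b held 4 and 1. Of the 84 matched rows, 69 had a RefSeq window of 300 bases (250 before and 50 after the start). In these windows the median CpG number was 20 for 65 members other than Cox7a1, 21 for 8720 tested genes and 7 for all 27025 promoters, and 8.5 for Cox7a1 with 3 of the rows under the minimum. Motifs of factors known to act on these genes were searched on both strands. The full palindromic NRF1 motif was present in 7.69% of the 65 windows, against 2.26% of tested genes and 0.977% of all promoters, and its shorter core TGCGCA in 27.7%, 15.6% and 8.06%. The YY1 motif AAGATGGCG was present in 7 of the 65 windows (10.8%), against 3.61% and 1.49%. The shares of the full NRF1 and YY1 motifs rest on few windows, and their differences were not tested. The ETS motif CCGGAAG was present in 23.1%, 20.6% and 9.12%, so that members and other tested genes were close for this motif. None of the 4 windows of Cox7a1 and the rows under the minimum held any of these motifs. TGCGCA is not contained in the longer NRF1 motif but can overlap it, and a match describes letters in a window, not a bound site.

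Levels per kb of transcript differed widely within and between complexes. Dividing the CPM of each member by the median length of its best-ranked GENCODE isoforms, the median over members of the complex was 187 CPM per kb for complex I, 95.8 for complex II, 365 for complex III, 538 for complex IV and 413 for complex V, against 6.98 CPM per kb over 10795 tested genes with a length. Cox7c, a small subunit of complex IV, had the highest level at 1077 CPM per kb, followed by Ndufa7 at 1040 and Atp5c1, the gamma subunit of the ATP synthase rotor, at 998. In complex I the 3 core subunits of the NADH-oxidising module (Ndufv1, Ndufv2, Ndufs1) had a median of 62.2 CPM per kb, the 4 core subunits of the ubiquinone-reducing module 124, and the 28 supernumerary subunits 220.2. In complex III the 3 core and catalytic subunits (Uqcrc1, Uqcrc2, Uqcrfs1) had 123 CPM per kb and the 5 small ones 426. The median length used was 861 bases over the members and 2835 over tested genes. Whether reads cover transcripts evenly is unknown, and the part of length in these contrasts was not tested. The lowest levels were those of Cox7a1 at 0, Atp5s at 3.48, Ndufs5 at 6.84, Atp5sl at 8.02 and Sdhc at 14.7 CPM per kb. The values of some small subunits are uncertain because processed copies can share their reads: 10 of the 77 members have at least 1 annotated pseudogene transcript of at least 95% identity over at least 50% of their length, among them Atp5l with 8, Atp5h and Uqcrb with 3 each, Atp5g2 with 2, and Atp5c1, Atp5k, Ndufb11 and Ndufs3 with 1 each.

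Together the members held 1.93 to 2.35% of the rescaled signal of a library. On the scaled CPM, their sum was 23284, 18151 and 23435 CPM in Lag3 islet, 22384, 23565 and 24312 CPM in Wt islet, 15914, 19682 and 24844 CPM in Lag3 NDL and 18844, 17955 and 24948 CPM in Wt NDL. The Wt islet libraries were the closest together, and the ranges of all 4 groups overlapped. In the plot of complex means by library, Lag3 islet 2 is the lowest of 12 in complexes I, II and III. The groups compared overlap in complexes I, II and V. In complex III the Wt islet libraries (7.77 to 8.16) lie above the Wt NDL libraries (7.63 to 7.66), and in complex IV the Lag3 islet libraries (7.94 to 8.12) lie above the Lag3 NDL libraries (7.24 to 7.88).

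**Figure D1:**
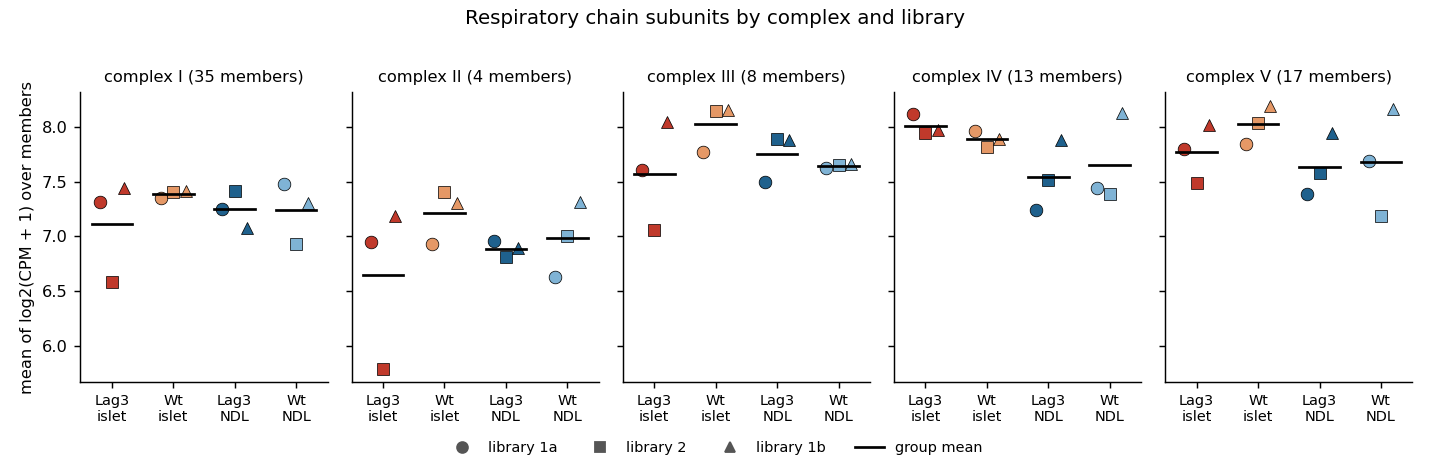
Mean of log2(CPM + 1) over the members of each complex, in 12 libraries of 4 groups; symbols are single libraries (1a, 2 and 1b) and bars are group means (n = 3). Complex II reached 5.79 in Lag3 islet 2 and 6.63 to 7.41 elsewhere, and in complexes IV and V the NDL library 1b lies above both other libraries of its group.

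The first comparison asked whether Tregs lacking Lag3 differed from Wt Tregs within islets. No member passed the test: limma with Benjamini-Hochberg adjustment over all 10868 genes called 0 of 77 members and 0 genes in all (0%) at an adjusted p under 0.05. At an unadjusted p under 0.05 no member was higher and 5 were lower in Lag3 islet, against 1.24% of all tested genes higher and 4.5% lower. The median difference over members was -0.18 on the log2(CPM + 1) scale, beside -0.22 over all tested genes, and 27 of 77 members lay above 0. By complex the median was -0.26 for I, -0.64 for II, -0.43 for III, 0.12 for IV and -0.16 for V. With RLE factors in place of trimmed means, the median of all genes moved to -0.03 and that of the members to 0.059, so the sign of the overall shift depends on the scaling, while complexes II and III kept a median under 0, at -0.40 and -0.20.

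The 3 members with the smallest p in this comparison are shown among the plots of single genes. Ndufv2 encodes an iron-sulfur subunit of the NADH-oxidising module of complex I, at chr17:66078638-66101559 (minus). It was at 19.0, 32.5 and 244 CPM in Lag3 islet and at 238, 268 and 216 CPM in Wt islet. Lag3 islet 1a and 2 lay far under all other 10 libraries, whose lowest was 142 CPM, and Lag3 islet 1b lay among the Wt values. The difference was -2.14 ± 0.69 (SE; limma adjusted p = 0.85). Ndufa10, a supernumerary subunit of complex I at chr1:92439010-92473860 (minus), was at 37.8, 32.1 and 115 CPM in Lag3 islet and at 171, 268 and 127 CPM in Wt islet. All 3 Lag3 islet values lay under all 3 Wt islet values, with a difference of -1.77 ± 0.60 (limma adjusted p = 0.85). Atp5d, the delta subunit in the central stalk of ATP synthase at chr10:80138632-80145818 (plus), was at 56.8, 39.2 and 123 CPM in Lag3 islet and at 262, 161 and 126 CPM in Wt islet. These groups did not overlap either, and the difference was -1.41 ± 0.58 (limma adjusted p = 0.85). For all 3 genes Lag3 islet 1b was the highest of its group and the nearest to Wt. The Ndufv2 difference rests on single libraries: it was -1.41 without Lag3 islet 1a. Without Lag3 islet 1b, Ndufv2 passed the test, at -3.22 ± 0.56 and a limma adjusted p of 0.0326, as 1 of 77 members beside 0.149% of all 10735 genes then tested. Lag3 islet 1b held the value among the Wt values, so leaving it out enlarges the difference and narrows the spread by construction. This pass is therefore no separate support for a genotype difference.

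The remaining members under an unadjusted p of 0.05 were Sdhd and Uqcrc1, named here after their values were seen. Sdhd, a membrane anchor of succinate dehydrogenase, was at 105, 12.4 and 167 CPM in Lag3 islet and 159, 296 and 193 CPM in Wt islet (-1.76 ± 0.78, limma adjusted p = 0.85). Uqcrc1, a core subunit of complex III, was at 154, 14.8 and 319 CPM in Lag3 islet and 220.4, 359.7 and 336 CPM in Wt islet (-1.70 ± 0.81, limma adjusted p = 0.87). Both were lowest of all 12 libraries in Lag3 islet 2. That library was the lowest of 12 for 24 members (31.2%), beside 18.5% of all tested genes, including Sdha, Sdhb and Sdhd of complex II. Its steps of rescaling are given above, and their part in these low values was not tested. Without it the median over members was -0.02, beside -0.0039 over all genes, with complex II at -0.37, III at -0.20, I at -0.03, IV at 0.14 and V at 0.02.

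Some members of the same complexes lay the other way. Libraries of the islet groups did not overlap for 3 members higher and 4 lower in Lag3 islet, beside 3.29% and 6.03% of all tested genes. The higher ones were Ndufs1, an iron-sulfur subunit of the NADH module (46.6, 71.4 and 39.2 CPM against 10.5, 35.6 and 10.2), Ndufs3 of the ubiquinone module (292, 196 and 199 CPM against 159, 145 and 125) and Sdhc, the partner anchor of Sdhd (87.3, 63.9 and 62.9 CPM against 37.1, 37.0 and 52.1). Their differences were 1.63 ± 1.03, 0.66 ± 0.42 and 0.75 ± 0.72, with limma adjusted p of 0.95, 0.95 and 0.97. The lower ones were Ndufa10, Atp5d, Uqcrb of complex III (125, 211 and 182 CPM against 278, 233 and 329) and Cox7c (688, 574 and 596 CPM against 699, 745 and 696), with differences of -0.71 ± 0.50 and -0.21 ± 0.39 for the last pair. Ndufs1 and Ndufv2 sit in one module and had differences of opposite sign, but neither passed the test and the Ndufv2 libraries overlapped. The counts of members without overlap are near the shares of all tested genes, so they are no result about a module. The 95% interval of the difference stayed within 1 log2 unit of 0 for 12 members, 7 of them subunits of ATP synthase (Atp5a1, Atp5b, Atp5c1, Atp5h, Atp5j, Atp5l and Atp5o) and the others Cox7a2l, Ndufa1, Ndufb11, Ndufc1 and Uqcrh, beside 2.03% of all genes. Such shares, here and below, depend on the level and spread of the genes, which are compared further down. Atp5b, the catalytic beta subunit, was at 1259, 1079 and 744 CPM in Lag3 islet and 1146, 1146 and 1076 CPM in Wt islet, a difference of -0.16 with an interval from -0.84 to 0.52.

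**Figure D2:**
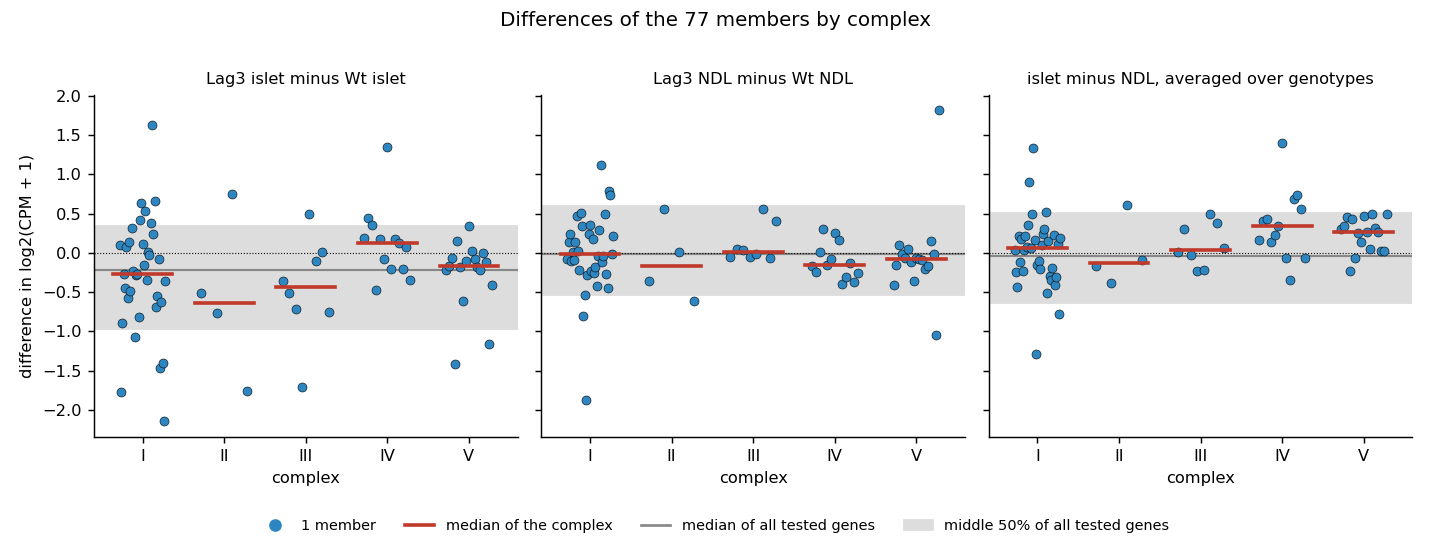
Difference in log2(CPM + 1) of each of the 77 members, by complex, for both genotype comparisons and for islet against NDL averaged over genotypes; red bars are medians of the complex, the grey line is the median and the band the middle 50% of all 10868 tested genes. Most members lie inside the band, Ndufv2 is the lowest point at left at -2.14, and complexes IV and V sit above the grey line at right.

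In lymph nodes the same genotypes were compared. limma called 0 of 77 members and 0 genes (0%), and at an unadjusted p under 0.05 it counted 0 members in either direction, against 1.43% of all tested genes higher and 1.3% lower. The member median was -0.05, beside -0.02 over all genes, and the medians of the 5 complexes lay between -0.17 and 0.01. Ndufs8 alone had libraries that did not overlap, higher in Lag3 NDL beside 3.89% of all tested genes, and no member was lower without overlap, beside 3.63%: this iron-sulfur subunit of complex I was at 197, 202 and 156 CPM in Lag3 NDL and 134, 153 and 57.9 CPM in Wt NDL (0.79 ± 0.52, limma adjusted p = 1.00). Ndufb2 and Ndufb11 were among the 3 members with the smallest p. Ndufb2, a small membrane-arm subunit, was at 66.0, 49.3 and 0.225 CPM against 75.2, 46.0 and 55.1, so its difference of -1.87 ± 1.12 rested on the low value in Lag3 NDL 1b. Without that library it was -0.01. Ndufb11, another membrane-arm subunit, was at 424, 606 and 520.0 CPM against 601, 786 and 871 (-0.54 ± 0.34, limma adjusted p = 1.00; -0.35 without Lag3 NDL 1a). The 95% interval stayed within 1 log2 unit of 0 for 16 members, beside 1.99% of all genes.

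The genotype difference in islets minus that in NDL was tested directly. No member and no gene passed (0%), and at an unadjusted p under 0.05 limma counted 0 members above and 2 below 0, beside 0.985% and 3.04% of all genes. The lowest p among members belonged to Ndufa10 (-1.91 ± 0.85), Ndufv2 (-2.13 ± 0.98) and Ndufv1 (-2.15 ± 1.04), all subunits of complex I, each with a limma adjusted p of 1.00. Without Lag3 islet 2 the Ndufv1 value was -1.27, and the Ndufv2 value was -1.40 without Lag3 islet 1a and -3.21 without Lag3 islet 1b. Ndufv1, which binds the flavin that takes electrons from NADH, was at 75.1, 12.9 and 113 CPM in Lag3 islet, 108, 110.4 and 183 CPM in Wt islet, 119.9, 136 and 52.8 CPM in Lag3 NDL and 98.8, 47.4 and 38.5 CPM in Wt NDL. Its values overlapped in both genotype pairs. The interval of the difference stayed within 1 log2 unit of 0 for Atp5b alone among the members, beside 0.11% of all genes, and for every other member it reached past 1 log2 unit on at least one side.

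**Figure D3:**
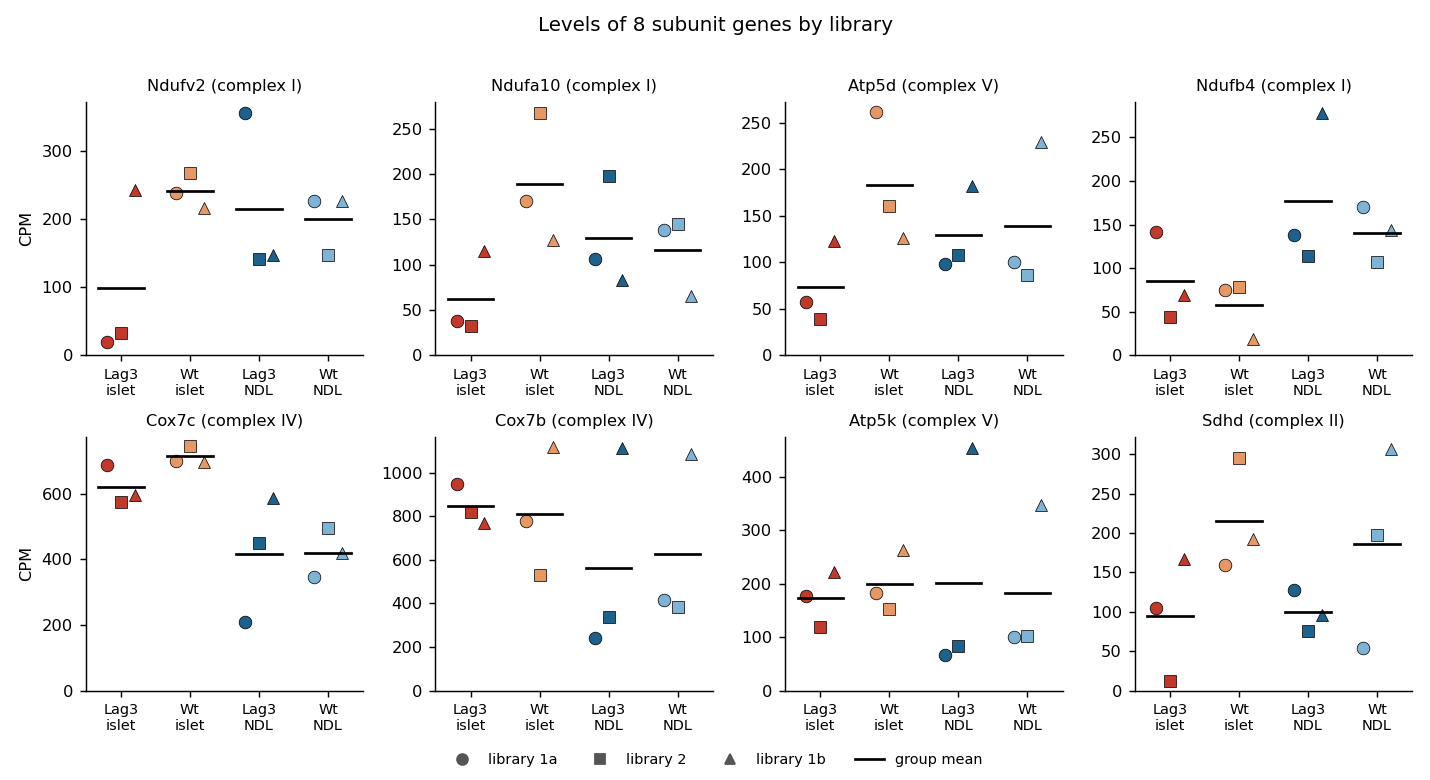
Levels in CPM of 8 subunit genes in the 12 libraries; symbols are single libraries, bars are group means (n = 3) and each axis starts at 0. Ndufv2 is low in Lag3 islet 1a and 2 only, at 19.0 and 32.5 CPM, Cox7c lies at 574 to 745 CPM in islets and 208 to 589 CPM in NDL, and in both NDL groups library 1b is the highest of its group for Cox7b and Atp5k.

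The second question was how Tregs in islets differ from Tregs in lymph nodes. Averaged over genotypes, limma called 0 of 77 members beside 0.92% of all tested genes (100 genes). At an unadjusted p under 0.05, 2 members were higher (Cox7c and Cox7a1) and 1 was lower (Ndufb4) in islets, beside 5.81% and 5.46% of all genes. Cox7a1 passed the minimum only through islet libraries, so its place here is no support for a tissue difference. No member had all 6 islet libraries above or below all 6 NDL libraries, beside 1.32% and 0.478% of all genes. The member median was 0.14, beside -0.04 over all genes, with 51 of 77 members above 0. The complexes differed in place: the median was 0.34 in complex IV and 0.27 in complex V, 0.06 in I, 0.03 in III and -0.13 in II. Over 21 alternative settings the median stayed between 0.15 and 0.57 in complex IV and between 0.13 and 0.44 in complex V. In the second deposited table the median over all 77 members was -0.09 and 32 members lay above 0, so the direction of the whole group flipped there. The complex II median turned to 0.20 without Lag3 islet 2. The 95% interval stayed within 1 log2 unit of 0 for 39 members, beside 7.14% of all genes, among them Sdha, Uqcrc2, Ndufs3, Cox4i1, Atp5a1 and Atp5o. Members have higher levels and less spread than most genes, so these shares are not compared at like level.

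Complexes IV and V were followed gene by gene. Cox7c was at 688, 574 and 596 CPM in Lag3 islet, 699, 745 and 696 CPM in Wt islet, 208, 449 and 589 CPM in Lag3 NDL and 346, 495 and 420.5 CPM in Wt NDL. Wt islet lay above all 6 NDL libraries, and Lag3 islet overlapped with Lag3 NDL 1b alone. The difference was 0.74 ± 0.27 (limma adjusted p = 0.28). Cox7a1, whose values are given above, had 1.40 ± 0.64 (limma adjusted p = 0.42) with 3 of 6 islet libraries at 0. In complex V the smallest p belonged to Atp5j2, subunit f of the membrane part (321 to 426 CPM in the 6 islet libraries and 184 to 410.4 CPM in NDL; 0.50 ± 0.28), and Atp5c1 (945 to 1798 CPM and 576 to 1554 CPM; 0.46 ± 0.27), with limma adjusted p of 0.53 and 0.55. Atp5c1 had 0.27 without Lag3 NDL 1a. Atp5b, the catalytic subunit, ranged from 744 to 1259 CPM in islets and 588 to 1012 CPM in NDL (0.34 ± 0.23). The 3 genes for the c-ring of ATP synthase, which encode the same mature protein, had 0.25 (Atp5g1), 0.14 (Atp5g2) and 0.46 (Atp5g3). All 17 complex V members were above 0 in Wt islet against Wt NDL, from 0.02 to 1.61, but 13 of 17 with RLE factors or without scaling and 10 of 17 in the second table. These 17 include Atp5s and Atp5sl, which are not subunits and had 0.08 and 1.61. Subunits of the head reached at most 0.54, and those of the membrane part and stalk 0.50.

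In complexes I to III the medians lay nearer to 0, and single members reached from -1.29 to 1.33. Ndufb4, a membrane-arm subunit of complex I at chr16:37647170-37654453 (minus), was at 142, 44.2 and 69.5 CPM in Lag3 islet, 75, 78.8 and 19.0 CPM in Wt islet, 137, 114 and 278 CPM in Lag3 NDL and 170.4, 107 and 143 CPM in Wt NDL. Lag3 islet 1a was the only islet library within the NDL range. The difference was -1.29 ± 0.45, the smallest p of all members (limma adjusted p = 0.24). Ndufb11, of the same arm, had 0.50 ± 0.24 (limma adjusted p = 0.45). In complex II Sdhc had 0.61 ± 0.51 and Sdhb, the iron-sulfur subunit, -0.39 ± 0.32. In complex III the Rieske protein gene Uqcrfs1 had 0.50 ± 0.36 and the hinge subunit gene Uqcrh 0.38 ± 0.30, and none of these 4 passed (limma adjusted p from 0.64 to 0.70). Without single libraries Sdhc came to 0.33 (Wt NDL 2), Uqcrfs1 to 0.32 and Uqcrh to 0.23 (both Lag3 NDL 1a). The 7 core subunits of complex I had medians of -0.52 in the NADH module and -0.30 in the ubiquinone module.

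The values of further core subunits and isoforms named by role follow. Ndufs7, an iron-sulfur subunit of the ubiquinone module, was at 113, 2.75 and 126 CPM in Lag3 islet, 75, 113 and 132 CPM in Wt islet, 69.6, 88.9 and 57.1 CPM in Lag3 NDL and 93.8, 66.3 and 146 CPM in Wt NDL. Lag3 islet 2 was far under the other 11 libraries, which overlapped between groups. Sdha, the flavoprotein of succinate dehydrogenase, was at 244, 109 and 197 CPM in Lag3 islet, 203, 323 and 233 CPM in Wt islet, 197, 290.1 and 152 CPM in Lag3 NDL and 196, 334 and 279 CPM in Wt NDL. Uqcrc2, the partner of Uqcrc1 in complex III, lay between 86.2 and 226 CPM, with library 1b the lowest of its group in all 4 groups. In complex IV, Cox5a was at 395, 181 and 251 CPM in Lag3 islet and 191, 208 and 178 CPM in Wt islet, and at 129 to 298 CPM in NDL. Cox5b had 163 to 397 CPM in islets and 149 to 401 CPM in NDL, and Ndufa4 243 to 611 CPM and 271 to 858 CPM. Cox7a2l lay between 343 and 827 CPM, and its 3 Wt NDL values (756, 593 and 827 CPM) were above its 3 Wt islet values (565, 343 and 509.6 CPM). In the head of ATP synthase, Atp5a1, the alpha subunit, was at 540.1, 427 and 466 CPM in Lag3 islet, 515, 629 and 523 CPM in Wt islet, 376, 445 and 280.5 CPM in Lag3 NDL and 398, 548 and 507 CPM in Wt NDL. Atp5o ranged from 397 to 629 CPM over the 12 libraries. None of these passed the test in any comparison, and all but Cox7a2l in Wt and Cox5a in Lag3-deficient cells overlapped between the groups compared.

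Within each genotype the tissue comparison also called no member. Each of these shares its libraries with the genotype comparisons above. In Wt, 0.184% of all genes were called, and 61 of 77 members were above 0, with a median of 0.26 beside 0.10 over all genes. At an unadjusted p under 0.05, limma counted 1 member lower (Ndufb4, -1.49 ± 0.64) and none higher, beside 2.52% and 5.01%. Libraries did not overlap for 8 members higher in islets (Atp5b, Atp5g1, Atp5l, Cox7c, Ndufa8, Ndufb2, Ndufv1 and Uqcrfs1) and 3 lower (Cox7a2l, Ndufb4 and Ndufs3), beside 8.37% and 5.59% of all genes. The interval stayed within 1 log2 unit of 0 for 11 members, beside 1.61%. In Lag3-deficient cells, 0.12% of all genes were called, and 42 of 77 members were above 0, with a median of 0.05 beside -0.15. Unadjusted, limma counted 1 member higher (Cox7a1) and 2 lower (Ndufv2, -1.84 ± 0.69, and Sdhb, -1.05 ± 0.46), beside 3.42% and 5.29%. The limit given above for Cox7a1 holds here too. Sdhb was at 102, 97.5 and 212 CPM in Lag3 islet and 235, 274 and 292 CPM in Lag3 NDL, without overlap. Libraries did not overlap for 3 members higher (Atp5j2, Cox5a and Sdhc), beside 5.44% of all genes, and 3 lower (Ndufa11, Ndufs8 and Sdhb), beside 7.28%, and the interval stayed within 1 log2 unit for 10 members, beside 1.17%. Without Lag3 islet 2 the median was 0.16, with 55 of 77 members above 0 and all genes at 0.04. Without Lag3 islet 1b, Ndufv2 passed here too (-2.92 ± 0.56, limma adjusted p = 0.0264), as 1 of 77 members beside 0.298% of genes. The limit given above for leaving out that library holds here too.

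The libraries called 1b differed from the others of their group in these genes, in NDL and, by count, in islets. Across the 77 members, which share a library and are not independent replicates, Spearman's rho between Lag3 NDL 1a and 2 was 0.907, while 1b had 0.546 with 1a and 0.643 with 2. Over all tested genes these values were 0.882, 0.737 and 0.718. In Wt NDL the values were 0.871, 0.732 and 0.789 over the members and 0.801, 0.766 and 0.723 over all tested genes. In both islet groups all 3 pairs lay between 0.791 and 0.904 over the members. In both NDL groups, 1b held the highest of the 3 values for 30 members (39.0%), beside 14.7% of all tested genes, and the lowest for 9 members (11.7%), beside 19.4%. For mitochondrial ribosomal protein genes, 1b was the highest in both NDL groups in 27.6%. In both islet groups, 1b held the highest value for 22 members (28.6%), beside 12.6% of all tested genes. Of the 30, 16 were among the 26 subunits of complexes IV and V, including Atp5k, Atp5e, Cox7a2, Cox7b, Cox6c, Cox4i1 and Cox5b. Atp5k, subunit e of ATP synthase, was at 65.8, 83.1 and 455 CPM in Lag3 NDL and 101, 101 and 347 CPM in Wt NDL, against 118 to 263 CPM in the 6 islet libraries. Cox7b was at 242, 336 and 1113 CPM in Lag3 NDL and 415, 383 and 1088 CPM in Wt NDL, against 529 to 1119 CPM in islets. The low ones included Ndufa10, Ndufv1, Ndufs8, Uqcrc1 and Uqcrc2. Of the members 40.3% were under 700 bases, beside 2.96% of tested genes with a length. Lag3 NDL 1b minus the others of its group had a median log2 value of 0.54 for these and 0.03 for longer members. Over all tested genes it was 0.17 and -0.33. In Wt NDL the members had 0.47 and 0.31, and all tested genes 0.43 and -0.08. In Lag3 islet the members had 0.35 and 0.36, and in Wt islet 0.10 and 0.04. The parts of transcript length and of library 1b's larger Rn45s share in this were not tested.

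The comparisons were also read without the 4 libraries called 1b, whose header number repeats. limma then called 0 of 77 members averaged over genotypes, beside 0.436% of 10325 genes. At an unadjusted p under 0.05 it counted 12 members higher in islets, beside 6.05% of all genes, and 3 lower, beside 8.55%. Of the 12, complex IV gave 4 (Cox6c, Cox7a1, Cox7b and Cox7c), complex V gave 5 (Atp5b, Atp5c1, Atp5g3, Atp5j2 and Atp5k) and complex I gave 3 (Ndufb11, Ndufc1 and Ndufc2). All of these but Cox7a1, Cox7c and Ndufb11 are among the 30 members that were highest in NDL 1b, and leaving that library out lowers their NDL mean by construction, so the count is no separate support for a tissue difference. Cox7a1 owes its place among the tested genes to islet libraries, as given above. The smallest p belonged to Cox7b at 1.14 ± 0.25 (limma adjusted p = 0.0847). The 3 lower ones were Ndufv2, Sdhb and Uqcrc1, one from each of complexes I to III. The complex medians were 0.50 in IV and 0.44 in V, beside -0.21 over all genes, and -0.05 in I. For Lag3 islet against Wt islet, 6 members were then lower, beside 8.2% of genes, and 1 higher, beside 2.03%, with Ndufv2 at -3.16 ± 0.61 (limma adjusted p = 0.21). Lag3 islet 1b was the highest of its group for all 6 lower members and the lowest for the higher one, Ndufc2. Leaving it out thus moves the Lag3 islet mean in these directions by construction, so these counts are no separate support for a genotype difference.

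**Figure D4:**
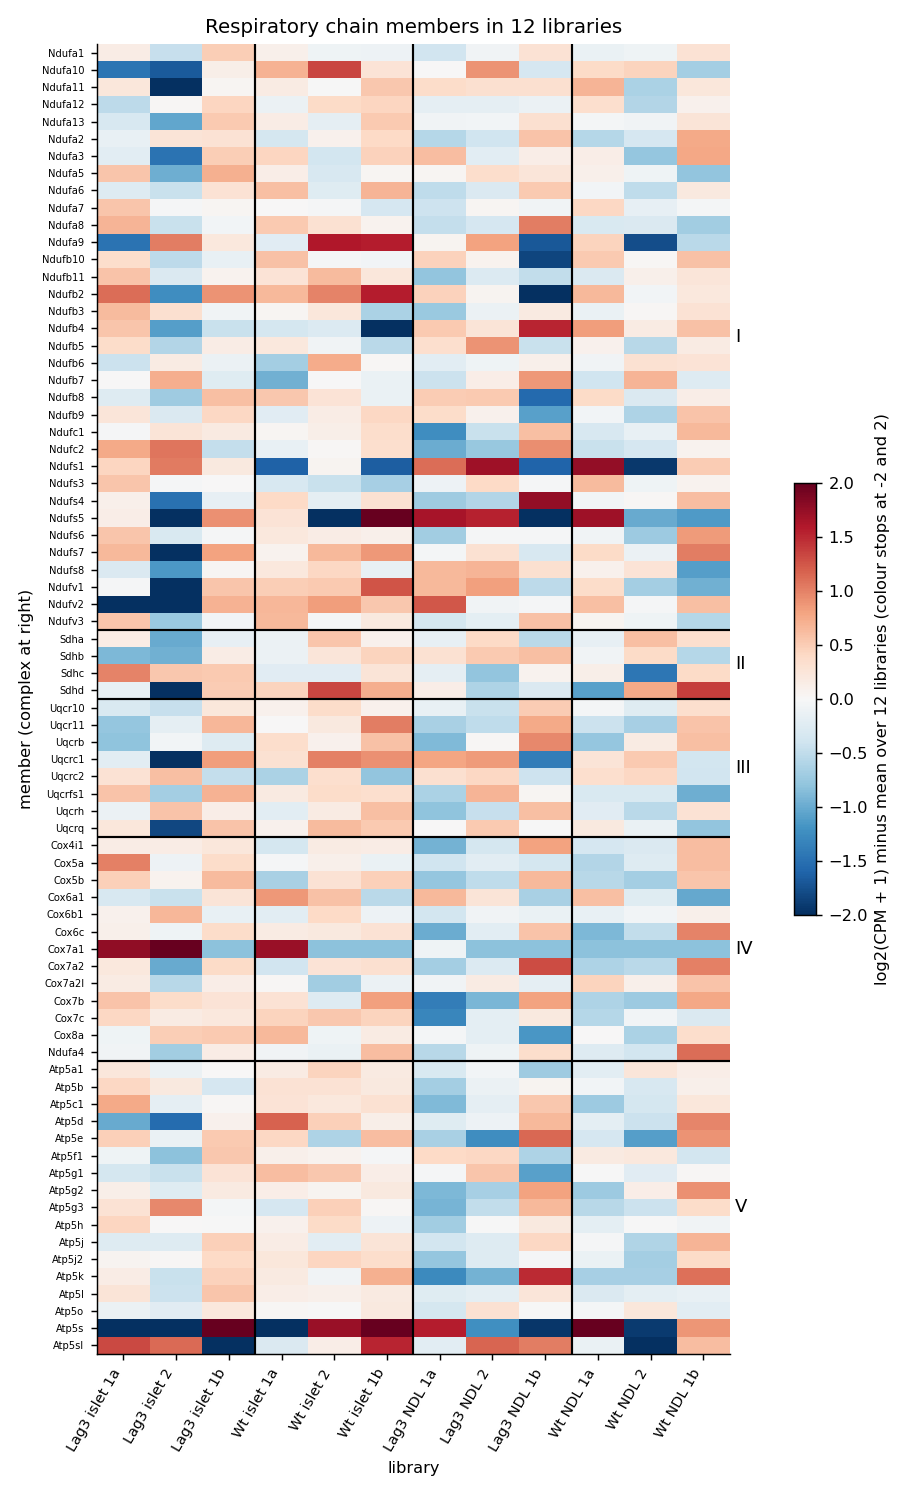
Heat map of log2(CPM + 1) of each member shown (1 is left out) minus its mean over the 12 libraries, with members ordered by complex and name and libraries by group; the colour scale stops at -2 and 2. Library 1b of both NDL groups is red through most of complexes IV and V, and Lag3 islet 2 holds many of the darkest blue cells of complexes I to III.

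Members were measured with less spread than most genes. The median residual SD on the log2 scale was 0.54 over the 77 members and 1.26 over all tested genes, and the members are also at higher levels. For the 39 members in the middle of their own level range (7.04 to 8.38 on the log2 scale) it was 0.52, and for 785 other genes of that range it was 0.59. Atp5o, the stalk subunit that confers oligomycin sensitivity, was the steadiest at 0.24. Atp5s was the most variable at 2.47, followed by Ndufs5 at 1.93, Ndufb2 at 1.76 and Atp5sl at 1.71.

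Genes around the chain were read from lists of partners. No gene of any of 6 lists passed the test in any of the 6 comparisons. Averaged over genotypes, islet against NDL, an unadjusted p under 0.05 was reached by 3 of 12 chain partners (2 higher, 1 lower), 2 of 44 assembly factors (1 and 1), 1 of 20 tricarboxylic acid cycle genes (lower), 0 of 16 transcription and biogenesis genes, 1 of 7 carriers and porins (higher) and 7 of 76 mitochondrial ribosomal protein genes (4 and 3), to be read beside the 5.81% and 5.46% given above. Cycs, cytochrome c, which carries electrons from complex III to IV, had 0.80 ± 0.26 (limma adjusted p = 0.20), Atpif1, the inhibitor of ATP synthase, 0.71 ± 0.31 (0.37) and Slc25a5, the adenine nucleotide carrier, 0.62 ± 0.21 (0.23). The lower acid cycle gene, named after its values were seen, was Suclg1, a subunit of succinyl-CoA ligase, with -1.01 ± 0.39 (0.29). The lower chain partner, named on the same terms, was Etfdh, which passes electrons from fatty acid oxidation to ubiquinone, with -2.04 ± 0.90 (0.39). Mrps6 of the small mitochondrial ribosomal subunit came nearest to the threshold, at 2.00 ± 0.49 (limma adjusted p = 0.0575). In Lag3 islet against Wt islet the medians were -0.19 for the partners, -0.24 for assembly factors, -0.24 for the acid cycle and -0.38 for the ribosomal proteins, beside -0.22 over all genes.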

How the data were processed

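RNA sequencing values of 12 libraries were read from 2 gene tables. The first holds a deposited signal in the form of rescaled counts (whole numbers with nearly equal column totals, as the values show), so no count model was used. The second deposited table holds 10317 genes, including all 77 members, as a signal with nearly equal distributions, and served as an alternative. TopHat2, DESeq2 and mm10 are named, without versions or roles, per the submitters' processing notes. Column names gave group and number; 0 columns were left unmapped.

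Signal was scaled to CPM with factors from trimmed means of log ratios (30% of ratios, 5% of levels trimmed), and log2(CPM + 1) was fitted with limma 3.58.1 (R 4.3.3, mean-variance trend), with the 4 groups as terms and 8 residual degrees of freedom. A difference on this scale understates the change of low genes. Genes at 10 or more in at least 3 columns were tested, and p-values were adjusted over all of them by the Benjamini-Hochberg method within each of 6 comparisons, with a threshold of 0.05. The script was tested on simulated data with the same spread for all genes and planted changes larger than most member differences. That run checks the code and not the power to find changes at the spread of these data. Named members were the 2 with the smallest p per complex for the tissue average, the 3 with the smallest p for the genotype comparisons and their difference, and sets of core subunits and isoforms; 1 of these genes is not reported here. Members, lists and rules were chosen with earlier results of these data known. Intervals are at 95%. Positions and lengths are from GENCODE M21 (GRCm38). Alternatives changed scaling, filter, pseudocount, table, block and libraries.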

Additional observations from a re-analysis of the deposited data

How the results depend on the processing

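Of the counts of members passing the test, 124 of 126 values under 21 alternative settings equalled the 0 of the report. Leaving out single libraries gave 0 to 1 member in Lag3 islet against Wt islet and 0 to 1 in Lag3 islet against Lag3 NDL, in both cases Ndufv2 without Lag3 islet 1b (-3.22, limma adjusted p = 0.0326, in the first, where it was -1.41 without Lag3 islet 1a). Lag3 islet 1b held the highest Ndufv2 value of its group, so leaving it out enlarges both differences by construction. Why that library differed was not tested. The median difference over members moved by less than the spread of the library means (0.24) in 125 of 126 values. The other one was Lag3 islet against Wt islet with RLE factors, at 0.059 in place of -0.18, where the median of all genes also moved by 0.19. This limit is wide beside the medians, so a change of sign can stay within it. The tissue average (0.14) changed sign in the second deposited table. Leaving out single libraries moved the median from -0.19 to 0.14 in Lag3 NDL against Wt NDL. In Lag3 islet against Lag3 NDL it moved from -0.05 to 0.16. For the members named by their p, 396 of 398 values kept their sign and side of the threshold; besides Ndufv2, Ndufb2 in NDL came to 0.000414 without the 4 libraries called 1b. With the header number as a replicate block, 0 members passed in each of the 6 comparisons. The labels do not say that the numbers pair libraries, and the main fit used no pairing. Deviations from group means were correlated between same-numbered libraries of different groups. Over all genes these correlations ran from -0.09 to 0.16. Over the members they ran from -0.32 to 0.57, highest between both NDL libraries 1a (0.57) and both 1b (0.44). As a hint from the data, 9 of 12 libraries correlated best with their own number. Depth is unknown, so precision at low levels could not be stated.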
